A study of Homo sapiens with 6 samples.

Results

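ADM, NDRG1 and PDK1 respond to low oxygen in many cells, and ACLY, SREBF1 and ELOVL6 serve fatty acid synthesis. They were followed through 4 RNA libraries of human cervical cancer cell lines, labelled as having the transcription factor p63 lowered or raised. These 6 genes were taken by name from 2 tables of counts per RefSeq transcript that hold 10661 genes between them. ADM, NDRG1, ACLY, SREBF1 and ELOVL6 had rows in both tables. PDK1 had a row in the SiHa table and none in the ME-180 table, so its level in ME-180 was not measured here and cannot be read as 0.

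The groups were ME-180 cells labelled p63 knockdown, ME-180 control cells, SiHa cells overexpressing p63 and SiHa cells with a vector, each with 1 library. ME-180 and SiHa are lines derived from squamous carcinomas of the cervix. Per the labels, all cells were at passages 13 to 15, ME-180 grew in McCoy's 5A medium and SiHa in DMEM, both with serum, and no low-oxygen or lipid treatment is named. The p63 isoform that was overexpressed, the hairpin sequence and whether the cells were clones or pools are not stated in the labels. A p63 chromatin immunoprecipitation of ME-180 and its input were not used, since no annotation of the peaks' genome build was at hand to place a peak beside a gene.

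Cells sense oxygen through the hypoxia-inducible factors. With oxygen present, the alpha subunits (HIF1A, EPAS1) are hydroxylated, bound by the VHL protein and degraded. When oxygen is scarce they persist, pair with ARNT and bind DNA at a short core sequence near target genes. This control acts mainly on the protein, so the mRNA of HIF1A does not report its activity. Fatty acid synthesis starts from citrate that leaves the mitochondrion, and its genes and those of sterol synthesis are activated by the sterol regulatory element binding proteins, which SREBF1 and SREBF2 encode.

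The promoter windows of RefSeq (build GRCh38.p14, 250 bases before to 50 bases after the gene's start, written 5′ to 3′ on the gene's strand) are shown for ADM and SREBF1, which were lower in the library labelled knockdown, for ACLY, which was higher, and for PDK1, whose window holds paired matches close to its start. Capitals mark matches on either strand to the HIF core (ACGTG or GCGTG, which read CACGT or CACGC on the other strand) or to the CCAAT box (ATTGG on the other strand).
ADM, chr11:10304823-10305122, plus strand: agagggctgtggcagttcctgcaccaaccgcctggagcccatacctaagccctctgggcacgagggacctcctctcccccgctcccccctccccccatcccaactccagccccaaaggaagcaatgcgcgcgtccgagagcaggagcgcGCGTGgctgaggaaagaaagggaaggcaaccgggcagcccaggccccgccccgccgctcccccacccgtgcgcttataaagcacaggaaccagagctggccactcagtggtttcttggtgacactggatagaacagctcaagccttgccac
SREBF1, chr17:17836937-17837236, minus strand: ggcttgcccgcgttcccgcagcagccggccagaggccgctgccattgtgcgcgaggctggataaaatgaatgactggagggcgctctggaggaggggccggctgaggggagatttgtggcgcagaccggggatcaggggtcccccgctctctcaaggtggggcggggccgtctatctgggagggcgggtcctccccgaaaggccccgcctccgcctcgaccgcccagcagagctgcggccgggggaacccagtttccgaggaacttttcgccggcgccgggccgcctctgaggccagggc
ACLY, chr17:41918973-41919272, minus strand: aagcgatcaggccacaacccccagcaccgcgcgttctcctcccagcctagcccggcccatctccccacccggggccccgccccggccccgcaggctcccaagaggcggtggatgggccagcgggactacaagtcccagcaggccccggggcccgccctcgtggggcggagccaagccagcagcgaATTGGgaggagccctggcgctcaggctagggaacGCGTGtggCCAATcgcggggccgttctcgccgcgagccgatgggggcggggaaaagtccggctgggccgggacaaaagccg
PDK1, chr2:172555840-172556139, plus strand: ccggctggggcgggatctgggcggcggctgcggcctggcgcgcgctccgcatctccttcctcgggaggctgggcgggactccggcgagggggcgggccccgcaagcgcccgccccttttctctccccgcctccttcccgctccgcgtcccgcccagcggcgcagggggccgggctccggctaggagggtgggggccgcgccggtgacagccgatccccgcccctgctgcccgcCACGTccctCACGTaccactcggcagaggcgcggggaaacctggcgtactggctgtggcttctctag

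The ADM window held 1 GCGTG, beginning at -101 relative to the start. The ACLY window held 1 GCGTG at -31 between 2 CCAAT boxes at -65 and -23, and a further ACLY window that overlaps it held the same 3 matches. The PDK1 window shown held 2 ACGTG matches on the opposite strand, beginning at -17 and -8, while a second RefSeq window of PDK1 held 1 CCAAT box and no HIF core. The SREBF1 window held none of the motifs, and the ELOVL6 window held 1 ACGTG at -10. No window of the 5 genes with a match in the table held the sterol regulatory element searched (TCACNCCAC) or the E-box CACGTG, which contains ACGTG on both strands. Of 35116 RefSeq windows of 300 bases, 48.4% held either HIF core, 36.5% held GCGTG, 21.4% held ACGTG, 34.6% held CCAAT and 1.13% held TCACNCCAC. NDRG1 is named only. These matches describe letters only and do not show that a factor was bound.

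Levels are given as CPM, the count of a transcript per 1000000 counts of its table and library. The tables summed to 10046579 counts in the library labelled knockdown, 10804272 in the ME-180 control, 13690639 in the SiHa overexpression library and 14207637 in the SiHa vector library. TP63 was 0.597 CPM in the library labelled knockdown against 520 CPM in the ME-180 control, and 13.1 CPM in the overexpression library against 0.493 CPM in the SiHa vector library. The library labelled knockdown stood far from its control. Across 13206 transcripts with rows in both tables, the Pearson correlation of log2(CPM + 1) came to 0.806 for those 2 libraries. Set against the SiHa vector library, it was 0.886 for the library labelled knockdown and 0.856 for the ME-180 control. Measured against the ME-180 control, all 7 squamous markers that reached 1 CPM were down by 2-fold or more (beside 20.6% of all genes). TP63 itself was among the 7. They summed to 90.9 CPM in the library labelled knockdown and 75475 CPM in the control. Most of the control's sum was KRT5, at 62894 CPM, against 23.8 CPM in the library labelled knockdown. Of 6 fibroblast markers, 4 were higher (beside 28.2% of all genes) and COL1A1 was lower (beside 20.6%). Their sum was 197 CPM against 138 CPM. The sums were 4.08 against 51.6 CPM for 2 immune markers and 1.89 against 13.5 CPM for 2 endothelial markers. Most of the immune sum was CD68, at 3.78 against 50.4 CPM, while CD14 had 3 counts against 13 and did not differ by 2-fold in CPM + 1. The endothelial markers split, with VWF lower (7 counts against 146) and KDR higher (12 counts against 0). CD3E, CDH5 and TEK were at 0 in the library labelled knockdown, against 2, 1 and 9 counts in the control, while LYZ and PDGFRB had 10 and 25 counts in the library labelled knockdown, against 0 in the control. In SiHa, 7 of 9 squamous markers were higher with overexpression (beside 0.572% of all genes), the overexpressed TP63 among them. The part of these differences in the results below was not tested. With 1 library per group the library cannot be left out, no test of the conditions was possible, and the 95% intervals below cover counting error only. In bulk RNA, fewer cells of a type and less RNA per cell cannot be told apart.

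A call, higher or lower, needed a 2-fold or larger ratio of CPM + 1 and a level of 1 CPM or more in either library of the pair. Of 6783 genes in ME-180, 28.2% were called higher and 20.6% lower in the library labelled knockdown, so a 2-fold difference was common there. Each member with a row in a table reached 1 CPM in both of its libraries. Of 6996 genes in SiHa, 0.572% were called higher and 0.743% lower with overexpression. The median log2 ratio of all these genes was 0.28 in ME-180 and -0.05 in SiHa. Scaling by trimmed means (TMM), which subtracts 0.28 in ME-180, gave 22.1% higher and 24.3% lower and moved the share of higher genes among those called to 47.6%, against 57.8% by table totals.

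Among the members measured in ME-180, ADM, NDRG1 and SREBF1 were lower, ACLY was higher and ELOVL6 was not called. ADM encodes the precursor of adrenomedullin, a secreted peptide that widens vessels and is a classic hypoxia-induced gene. It had 82 counts (8.16 CPM) in the library labelled knockdown and 7142 counts (661 CPM) in the control, 81.0-fold lower (95% interval 65.2 to 102). Of the 6783 genes, 62 had a lower log2 ratio than the -6.18 of ADM. In SiHa, ADM had 2610 counts (191 CPM) with overexpression and 2388 counts (168 CPM) with the vector, a ratio of 1.13 (1.07 to 1.20).

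NDRG1, a cytoplasmic protein induced by hypoxia and other stress and linked to cell differentiation, is given by its leading transcript here. The transcript NM_001135242.1 had 530 counts (52.8 CPM) in the library labelled knockdown and 15230 counts (1410 CPM) in the control, 26.7-fold lower (24.5 to 29.2). With overexpression in SiHa, that transcript had 2883 counts (211 CPM), against 4116 counts (289.7 CPM) with the vector, a ratio of 0.727 (0.693 to 0.763). NDRG1 thus lay on the lower side in both comparisons, short of 2-fold in SiHa. Its other transcripts, NM_001258432.1 and NM_001258433.1, had 527 and 516 counts in the library labelled knockdown, against 14432 and 14370 in the control. Reads of NDRG1 can enter several of these rows, so their log2 ratios of -4.71, -4.64 and -4.67 are not separate measurements. The matching SiHa values were -0.46, -0.44 and -0.43.

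PDK1, pyruvate dehydrogenase kinase, blocks the entry of pyruvate into the mitochondrial citric acid cycle. In SiHa it had 856 counts (62.5 CPM) with overexpression and 1400 counts (98.5 CPM) with the vector, a ratio of 0.635 (0.582 to 0.691). This was the lowest log2 ratio of the 6 genes in SiHa, -0.65, and 303 of 6996 genes lay below it. It did not reach 2-fold.

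ACLY, ATP citrate lyase, splits cytosolic citrate into acetyl-CoA, the building block of fatty acids and sterols. It had 9578 counts (953 CPM) in the library labelled knockdown and 2066 counts (191 CPM) in the control, 4.99-fold higher (4.75 to 5.23). Of the 6783 genes in ME-180, 443 had a higher log2 ratio than its 2.31. In SiHa, ACLY had 3836 counts (280.2 CPM) with overexpression and 4447 counts (313 CPM) with the vector, a ratio of 0.895 (0.857 to 0.935).

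SREBF1 encodes the membrane-held transcription factor SREBP-1, which activates the genes of fatty acid synthesis, ACLY among them. It had 1033 counts (103 CPM) in the library labelled knockdown and 10672 counts (988 CPM) in the control, 9.61-fold lower (9.01 to 10.2). SREBF1 and ACLY therefore lay on opposite sides, with log2 ratios of -3.25 and 2.31. In SiHa, SREBF1 had 4200 counts (307 CPM) with overexpression and 3677 counts (259 CPM) with the vector, a ratio of 1.19 (1.13 to 1.24). The tables give 1 transcript of SREBF1, NM_001005291.2, so its isoforms were not separated.

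ELOVL6 lengthens saturated and monounsaturated fatty acids, palmitate among them. It had 586 counts (58.3 CPM) in the library labelled knockdown and 494 counts (45.7 CPM) in the control, a ratio of 1.28 (1.13 to 1.44). Its log2 ratio of 0.34 was close to the median of all genes in ME-180, 0.28, and it was 0.07 after TMM scaling. In SiHa, ELOVL6 had 203 counts (14.8 CPM) with overexpression and 261 counts (18.4 CPM) with the vector, a ratio of 0.807 (0.669 to 0.973).

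**Figure D1:**
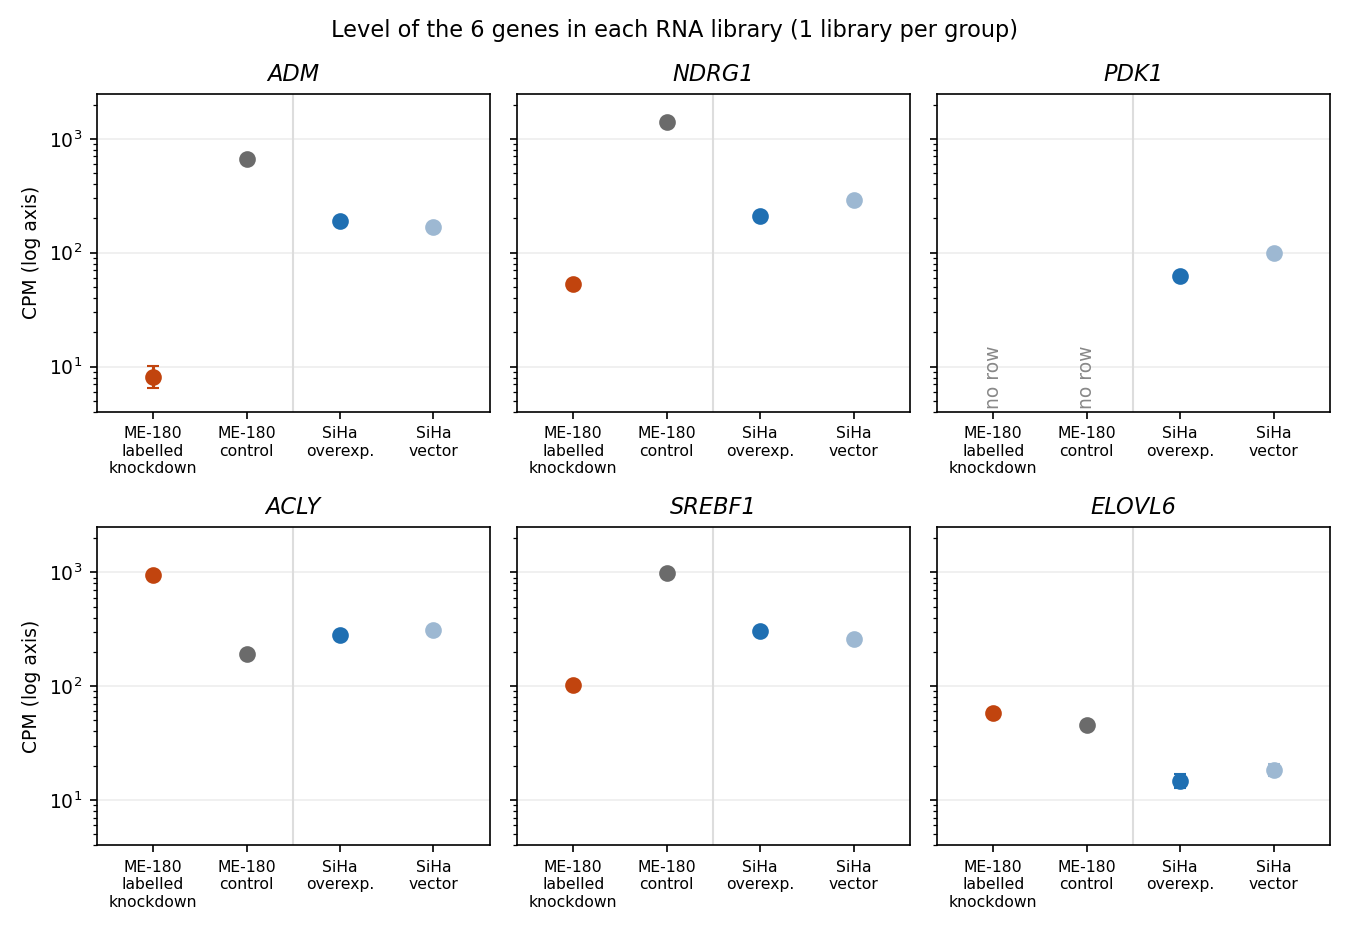
CPM of each gene's most abundant transcript (vertical log axis) in the 4 RNA libraries, 1 point per library, with bars for the exact Poisson 95% interval of the count, often smaller than the point. ADM, NDRG1 and SREBF1 are lowest in the library labelled knockdown, ACLY is highest there with 953 CPM, and PDK1 has no row in ME-180.

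The same genes were ordered across the 4 libraries, with the limit that the 2 tables hold different sets of rows and were scaled separately. ADM and SREBF1 were highest in the ME-180 control, then the overexpression library, then the SiHa vector library, and lowest in the library labelled knockdown. NDRG1 had the same ends with the SiHa libraries in the other order. For ADM, the SiHa vector library was 20.6-fold above the library labelled knockdown (16.5 to 26.0), so that library lay below both SiHa libraries as well as below its control. For SREBF1 the step between these libraries was 2.52-fold (2.35 to 2.70). ACLY ran the other way, with the library labelled knockdown 3.05-fold above the SiHa vector library (2.94 to 3.16) and the ME-180 control lowest, 1.47-fold below the overexpression library (1.39 to 1.55). ELOVL6 was higher in both ME-180 libraries than in both SiHa libraries, and the control stood 2.49-fold above the SiHa vector library (2.14 to 2.90). The SiHa libraries were the closest neighbours for ADM, NDRG1, ACLY, SREBF1 and ELOVL6, from 1.12-fold for ACLY (1.07 to 1.17) to 1.38-fold for NDRG1 (1.31 to 1.44). The interval nearest to 1 was that of ELOVL6, where the vector library was 1.24-fold above the overexpression library (1.03 to 1.50). Every such interval excluded a ratio of 1, but the spread between replicate cultures, which would decide whether neighbours differ, was not measured. Scaling to the transcripts present in both tables raised the SiHa levels, to 277 and 243 CPM for ADM in the overexpression and vector libraries. It left the order of the libraries as given for each of the 6 genes, but moved the folds between ME-180 and SiHa outside their intervals. The SiHa vector library was then 29.7-fold (ADM) and 3.63-fold (SREBF1) above the library labelled knockdown. For ACLY the library labelled knockdown was 2.11-fold above the SiHa vector library, and the control 2.12-fold below the overexpression library. For ELOVL6 the control was 1.73-fold above the SiHa vector library.

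**Figure D2:**
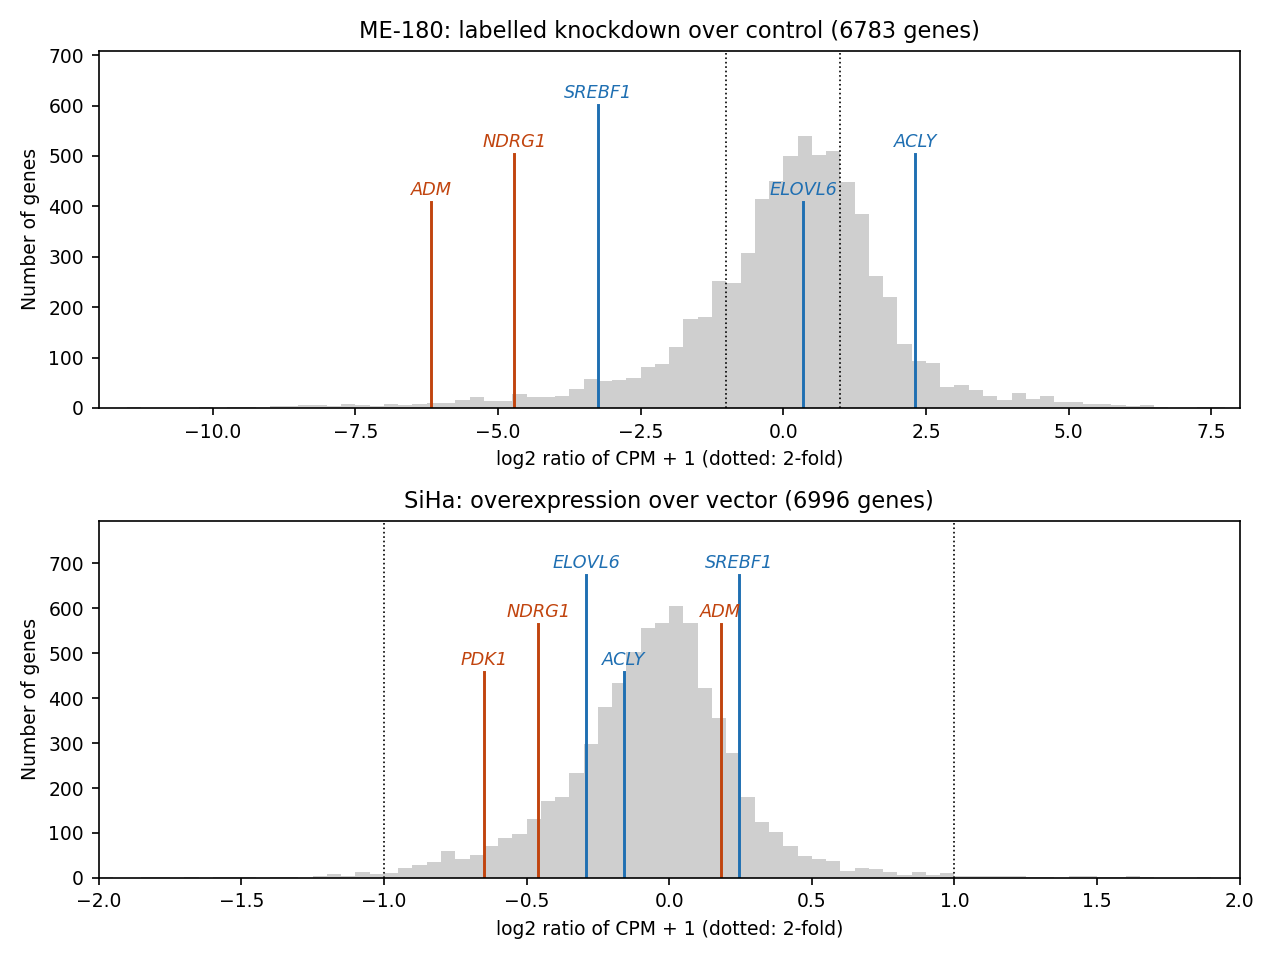
Number of genes (vertical axis) by log2 ratio of CPM + 1 (horizontal axis) for all genes with at least 1 CPM in a library, 6783 in ME-180 and 6996 in SiHa, with the hypoxia members in orange, the lipid members in blue and dotted lines at 2-fold. In ME-180, ADM, NDRG1 and SREBF1 lie in the lower tail and ACLY in the upper, while in SiHa all 6 lie inside the dotted lines. The SiHa axis runs from -2 to 2 and leaves out 6 genes beyond it.

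The wider oxygen pathway was read from lists chosen with earlier results of these data known. The HIF target list had rows for 22 of 44 genes in ME-180. Of these 22, 11 were lower and 1 was higher, with a median log2 ratio of -0.96 beside 0.28 for all genes. Without ADM and NDRG1, 9 of 20 were lower (45%, beside 20.6% of all genes) and 1 was higher (5%, beside 28.2%), with a median of -0.62. CA9, a carbonic anhydrase of hypoxic tumour cells, had 0 counts in the library labelled knockdown and 196 in the control. With the 0 set to 3 counts, CA9 was 60.8-fold lower, and the exact lower 95% limit was 48.9-fold. ANGPTL4, a secreted inhibitor of lipoprotein lipase, had 7 counts against 223 in the control, 29.6-fold lower (14.1 to 74.5). TGFA, an EGF receptor ligand, had 10 counts against 238, with a log2 ratio of -3.53. EDN1, the precursor of the vessel-constricting peptide endothelin, had 2 counts against 126, a ratio of 0.0171 (0.00204 to 0.0630).

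Not all targets were lower. VEGFA, the main vessel growth factor, had 125 counts in the library labelled knockdown and 118 in the control, a log2 ratio of 0.17. AK4 was at 0.24, HILPDA, a lipid droplet protein, at -0.31, and PLOD2, a collagen lysine hydroxylase, at 0.75. The collagen prolyl hydroxylase subunits P4HA1 and P4HA2 were called lower at -1.25 and -1.11, the histone demethylase KDM3A at -1.28, and LOX, a collagen cross-linking enzyme, at -2.89. CXCR4, a chemokine receptor, was the higher gene, with 19 counts against 1.

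Among the components of the pathway itself, HIF1A had 597 counts (59.4 CPM) in the library labelled knockdown and 2110 counts (195 CPM) in the control, 3.29-fold lower (2.9996 to 3.61). VHL, which marks the alpha subunits for degradation, had 3537 counts (352 CPM) against 886 (82.0 CPM), 4.29-fold higher (3.99 to 4.63). ARNT, the partner subunit, was 2.15-fold higher (1.88 to 2.47) and lost its call under TMM scaling, with a log2 ratio of 0.81. EPAS1 had a row in the SiHa table, with 227 CPM with overexpression and 210 CPM with the vector, and none in ME-180. In SiHa, HIF1A had 390.1 CPM with overexpression and 355 CPM with the vector, from another transcript than in ME-180.

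Glycolysis, which HIF activity raises in many cells, had rows for 16 of 23 genes in ME-180, of which 4 were lower (25%, beside 20.6% of all genes, or 24.3% under TMM scaling, where the list's count was also 4) and 0 higher (beside 28.2%). The median was -0.37. SLC16A3, the lactate exporter of glycolytic cells, had 2 counts in the library labelled knockdown and 97 in the control, a ratio of 0.0222 (0.00265 to 0.0823). PKM, pyruvate kinase, was 3.76-fold lower (3.66 to 3.87), HK1, a hexokinase, 2.45-fold lower (2.32 to 2.58), and GAPDH 2.39-fold lower (2.36 to 2.41). GAPDH and PKM have many near-identical copies in the genome, and their leading transcripts differed between the tables, so these values are less certain. HK2 was at a log2 ratio of 0.05, ENO1 at -0.01 and LDHA at -0.52. The leading transcript of ENO1 differed between the tables as well.

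PDK1 acts on the pyruvate dehydrogenase complex, and 9 of 14 genes of that complex and its control had rows in ME-180. Of these, 2 were higher (22.2%, beside 28.2% of all genes) and 0 lower (beside 20.6%), with a median of 0.75, so the share of higher genes did not exceed that of all genes. MPC1, a subunit of the mitochondrial pyruvate carrier, was 3.39-fold higher (2.92 to 3.94), and PDHB, a subunit of the enzyme, 2.66-fold higher (2.48 to 2.85). The related kinases PDK3 and PDK2 were not called, at 0.86 and -0.20. In SiHa, where PDK1 was at -0.65, PDK2 was at -0.17, from another transcript than in ME-180, and PDK3 at 0.06. PDK4 had 7 counts with overexpression and 21 with the vector.

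Among the 8 genes listed for adrenomedullin receptors and processing, 4 had rows in ME-180. MME, a peptidase that degrades small peptides, was called lower, with 10 counts in the library labelled knockdown and 52 in the control. With a pseudocount of 5, MME lost its call. PAM, which amidates adrenomedullin, was not called at -0.37, nor was the receptor partner RAMP2 at 0.11. In the NDRG family, NDRG4 had 106 counts against 79, a log2 ratio of 0.47, while NDRG1 was at -4.71.

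In the lipid arm, fatty acid synthesis and elongation genes had rows for 12 of 31 in ME-180, and 10 passed the filter of 1 CPM. Of these 10, 3 were higher (30%, beside 28.2% of all genes) and 0 lower (beside 20.6%), with a median of 0.61. Without ACLY and ELOVL6, 2 of 8 were higher (25%, beside 28.2% of all genes), with a median of 0.23. SLC25A1, the carrier that exports citrate to ACLY, had 2732 counts in the library labelled knockdown and 816 in the control, 3.60-fold higher (3.33 to 3.90). ACACB, an acetyl-CoA carboxylase, was 2.72-fold higher (2.36 to 3.15), while ACACA had no row in ME-180. Listed genes without a row were not measured, so the shares and medians describe only the genes with rows. The elongases differed among themselves, with ELOVL5 at 0.93, ELOVL6 at 0.34, ELOVL1 at -0.56 and ELOVL7 at -0.99, and under TMM scaling ELOVL7 was called lower at -1.27. The desaturase SCD5 was at -0.41, and ACSS2, which makes acetyl-CoA from acetate, at -0.49.

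Sterol synthesis and uptake genes had rows for 11 of 23 in ME-180, of which 5 were higher (45.5%, beside 28.2%) and 0 lower (beside 20.6%), with a median of 0.67. Under TMM scaling 3 were higher (beside 22.1% of all genes) and 2 were lower, NSDHL at -1.16 among them. LSS, lanosterol synthase, had 1153 counts in the library labelled knockdown and 245 in the control, 5.06-fold higher (4.41 to 5.83). CYP51A1, which demethylates lanosterol, was 4.89-fold higher (4.44 to 5.41), and DHCR7, a final-step enzyme of cholesterol synthesis, 3.98-fold higher (3.58 to 4.43). SC5D at 1.25 and FDPS at 1.01 lost their call under TMM scaling. NSDHL was at -0.88 by table totals and HMGCS1, which makes a precursor of mevalonate, at -0.40, so the list held genes on both sides of 0.

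Of the 13 regulators listed beside SREBF1, SREBF1 included, 4 had rows in ME-180. NR1H2, the liver X receptor beta, a sterol sensor, was 2.90-fold lower (2.55 to 3.30), and NR1H3, liver X receptor alpha, was at 0.11. SREBF2, SCAP and INSIG1 had no row in either table, so the proteins that hold and release SREBP-1 were not measured here.

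**Figure D3:**
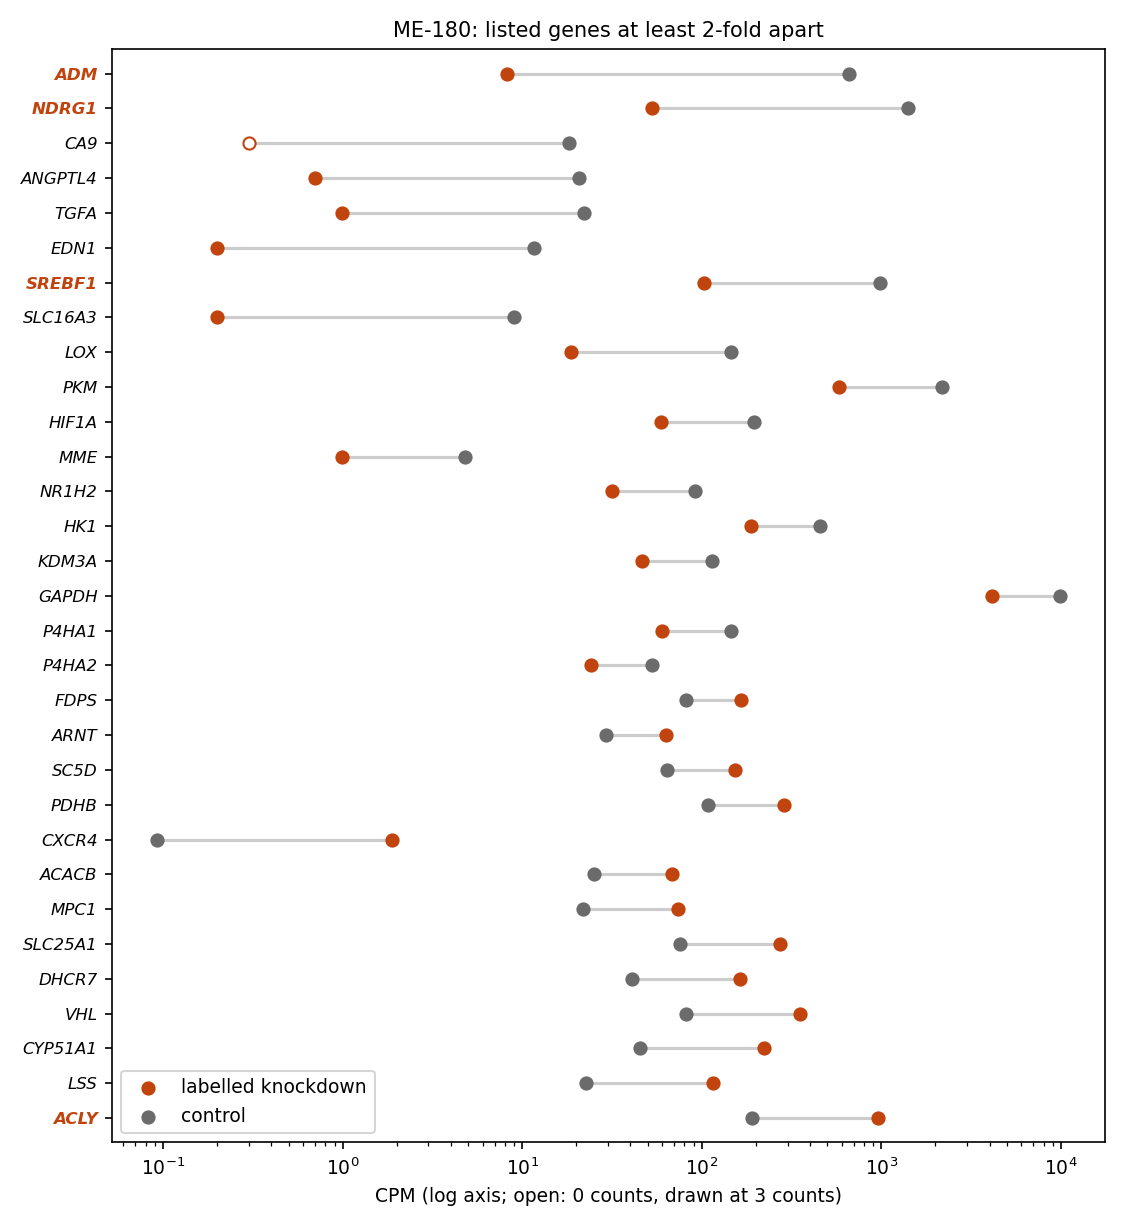
CPM (horizontal log axis) in the library labelled knockdown (orange) and the ME-180 control (grey) for genes of the 9 pathway lists that are reported here and were called at least 2-fold apart, ordered by log2 ratio, with the members in bold orange. ADM heads the lower genes and ACLY ends the higher ones, and CA9, with 0 counts in the library labelled knockdown, is drawn open at 3 counts.

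In SiHa few genes were called at all, and by CPM + 1 the listed genes stayed within 2-fold. Of 93 genes of the 9 lists that reached 1 CPM, 0 were called higher (beside 0.572% of all genes) and 0 lower (beside 0.743%). The median log2 ratio was -0.14 over 26 HIF targets, -0.07 over 19 glycolysis genes, -0.04 over 12 fatty acid genes and -0.07 over 12 sterol genes, beside -0.05 for all genes. CA9 had 103 CPM with overexpression and 113 CPM with the vector, and ANGPTL4 56.7 CPM and 39.8 CPM. The widest HIF targets were NDUFA4L2 at 0.71, from 23 counts with overexpression and 9 with the vector, and MXI1, a MYC antagonist, at -0.67. By plain CPM, NDUFA4L2 was 2.65-fold higher (1.18 to 6.51) and PDK4 2.89-fold lower (1.18 to 8.05), both from few counts. SLC25A1 was at 0.04 and LSS at -0.17. Differences under 2-fold in SiHa cannot be told apart from the spread between cultures, which was not measured.

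**Figure D4:**
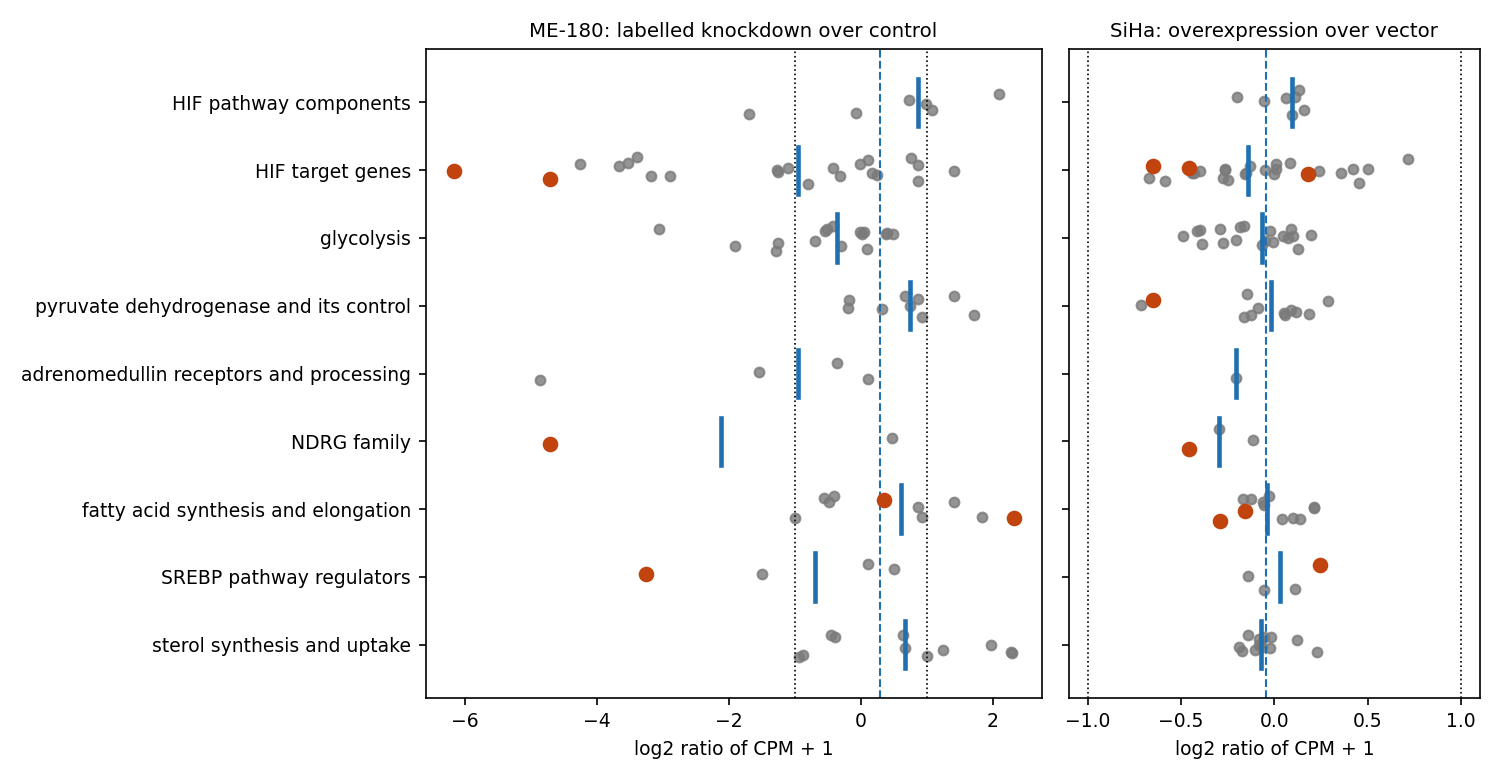
Log2 ratio of CPM + 1 (horizontal axis) for each gene of the 9 pathway lists with at least 1 CPM in a library, members in orange, with a solid blue bar at each list's median, a dashed line at the median of all genes and dotted lines at 2-fold. In ME-180 (left) the HIF target list reaches furthest down, to ADM at -6.18, while in SiHa (right) every gene lies inside the dotted lines.

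The genes with the most similar pair of log2 ratios were sought over 4183 genes that reached 100 counts in either library of both tables, by the Euclidean distance over the 2 comparisons. For ADM they were SPINT2, CASP4 and CRIP2, at distances of 0.08, 0.15 and 0.20. For NDRG1 they were CAV1 (0.27), ARHGAP23 (0.30) and EVPLL (0.45). For ACLY they were CDC7 (0.02), LSS (0.03), a sterol enzyme described above, and WDR35 (0.03). These distances were smaller than the counting error of the ACLY log2 ratio in ME-180 (2.25 to 2.39). The order of its neighbours was therefore not resolved. For SREBF1 they were ACTL10 (0.05), FRMD6 (0.06) and ETS1 (0.08), and for ELOVL6 DMPK (0.02), NFU1 (0.02) and ZNF704 (0.03). The distances were also within the counting error in ME-180 for ADM (-6.67 to -6.03), SREBF1 (-3.36 to -3.17) and ELOVL6 (0.18 to 0.53). The order of their neighbours was not resolved either. Genes are dense near the middle of both distributions, so a short distance there, as for ELOVL6, says little.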

How the data were processed

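RNA was measured in 4 libraries (1 per group), grouped by the genotype label. Total RNA came from a TRIzol extraction, per the labels' protocols. The submitters' processing notes name TopHat, Cufflinks, DESeq2 and hg19, without roles or versions. No source used here gives the counter or the strand setting. The authors deposited whole-number counts per RefSeq transcript in 2 tables (15189 transcripts in ME-180, 16600 in SiHa), with a log2 fold change and p-values that were not used as results, since 1 library per group gives no spread. In the authors' deposited table the log2 fold change was -6.66 for ADM and 2.00 for ACLY in ME-180.

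CPM is a count per 1000000 counts summed over a library's rows in its table. These totals set the precision and are not full depths. For each gene, the transcript with most CPM over both libraries was used. Log2 ratios used CPM plus 1, which shrinks low genes. Intervals were exact (Poisson for a count, conditional binomial for a ratio, 95%) and cover counting error only. Genes named are the 6 members, TP63, up to 6 called genes per list, named regulators and the 3 nearest genes. Values of other listed genes were added after they were seen, and some listed genes enter the counts but are not reported here by name. The members and lists were chosen with earlier results of these data known. The rules were tested on simulated data. Tools were Python 3.11.15, scipy 1.17.1, R 4.3.3, edgeR 4.0.16 (TMM) and DESeq2 1.42.0 (size factors). Promoter sequences are from RefSeq GRCh38.p14, matched by symbol for 5 of 6 members. Other scalings, pseudocounts, transcripts and filters were tried as alternatives.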

Additional observations from a re-analysis of the deposited data

How the results depend on the processing

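No paired analysis was possible because each group has 1 library and the result comes from no test. For the same reason no replicate could be left out. The direction of ADM, NDRG1, ACLY and SREBF1 in ME-180, and their place beyond 2-fold, held under each alternative run, and none of the 6 genes passed 2-fold in SiHa under any. TMM scaling gave log2 ratios in ME-180 of -4.99 for NDRG1, 2.03 for ACLY, -3.53 for SREBF1 and 0.0686 for ELOVL6. Median-of-ratios scaling gave -4.99, 2.04, -3.52 and 0.0750 for the same genes. Leaving the 10 highest rows out of the total gave 2.23 for ACLY, and a pseudocount of 5 gave -5.66 for ADM. With a pseudocount of 5, 1272 genes were higher and 918 lower in ME-180, and 14 higher and 6 lower in SiHa. With a pseudocount of 0.1, 113 genes were higher and 227 lower in SiHa, and 1 listed gene was higher and 1 lower. Scaling to transcripts in both tables gave, in the overexpression and vector libraries of SiHa, 277 and 243 CPM for ADM, 305 and 419 for NDRG1, 90.7 and 142 for PDK1, 406 and 452 for ACLY, 445 and 374 for SREBF1, and 21.5 and 26.6 for ELOVL6, by construction, since fewer rows enter the total. The cause of the other shifts is the change of scale or pseudocount itself. Of 90 alternatives for single lists, 14 moved a count by over 1.5 times. The search for p63 peaks near the genes was not run, for want of an annotation of the peaks' build. Low counts limit EDN1, SLC16A3, CXCR4, PDK4, MME, ANGPTL4 and TGFA.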
